A study of Mus musculus with 14 samples.

Results

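Replication-dependent histone genes encode the linker histone H1 and the core histones H2A, H2B, H3 and H4 that package newly made DNA. Here they are the genes with the current symbols H1-1 to H1-6 (listed by RefSeq as H1f1 to H1f6), H2ac, H2bc, H3c or H4c followed by a number, which older annotations called Hist1h, Hist2h, Hist3h and Hist4h. The rule used names only, and 59 such genes were among the 21761 genes with exon counts: 6 for H1, 14 for H2A, 16 for H2B, 11 for H3 and 12 for H4. RefSeq lists 5 more (H3c14, H2ac7, H2ac24, H2ac14 and H2ac19) that have no row of their own in the counts and were not analysed here.

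The counts came from ribosomal RNA-depleted total RNA of untreated bone marrow-derived macrophages from FVB/Hsd mice. A pair of hairpins against Wdr82, an RNA polymerase II-associated protein of the SET1 histone methyltransferase and transcription termination complexes, gave 1 library each (sh1137 and sh830), and a scrambled hairpin gave 2 (scrambled 1 and scrambled 2). All cells had been infected with retrovirus and selected with puromycin, so the scrambled cells shared both. The animals' age and sex and whether cultures or mice were pooled are not given in the sources used here. The cells carried a knockdown and not a deletion, and p-values rest on these libraries alone. In the main fit, described below, p-values measure only the spread left after a term for a split of the libraries. The other 10 of the 14 samples, with Menin hairpins, lipopolysaccharide or 4-thiouridine labelling, were not analysed here.

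Most metazoan mRNAs end in a poly(A) tail, but the mRNAs of these genes end in a conserved stem-loop that the stem-loop binding protein (Slbp) recognises. They are made in S phase and degraded when DNA synthesis stops, most of their genes lack introns, and the genes lie in clusters that contain many near-identical copies. Ribosomal RNA depletion, unlike poly(A) selection, keeps such RNAs in the library. Reads of near-identical copies may have been shared between copies by the authors' counting, so single members are less certain than the sum of a family.

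The promoters of these genes carry elements that histone genes share and others that mark a family, so 150 bases before the annotated start are printed for the member with the most counts among those with a promoter entry in each family, and for H2ac20, whose divergent neighbour is described further on. The sequences are RefSeq's on GRCm38.p6, from 5′ to 3′ on the gene's strand, and capitals mark short elements searched on both strands. These were the TATA box TATAAA, the CCAAT box with the letters CCAAT, the octamer element ATTTGCAT, the H1 box with the letters AAACACA, and the element described in H4 promoters, GGTCC. The stretches are chr13:23622559-23622708 (- strand) for H1f4, chr13:21753913-21754062 (- strand) for H2ac15, chr3:96220881-96221030 (- strand) for H2ac20, chr3:96269550-96269699 (+ strand) for H2bc18, chr3:96239128-96239277 (- strand) for H3c15 and chr13:23581418-23581567 (+ strand) for H4c4.
H1f4: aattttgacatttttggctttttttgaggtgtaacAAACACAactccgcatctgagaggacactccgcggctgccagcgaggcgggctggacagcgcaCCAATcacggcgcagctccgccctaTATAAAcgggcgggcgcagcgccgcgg
H2ac15: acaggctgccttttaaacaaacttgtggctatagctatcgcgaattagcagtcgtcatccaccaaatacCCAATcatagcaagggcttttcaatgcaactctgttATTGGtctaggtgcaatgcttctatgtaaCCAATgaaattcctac
H2ac20: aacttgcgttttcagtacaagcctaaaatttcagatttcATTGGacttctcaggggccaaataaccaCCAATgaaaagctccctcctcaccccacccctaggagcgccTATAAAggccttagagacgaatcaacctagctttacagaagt
H2bc18: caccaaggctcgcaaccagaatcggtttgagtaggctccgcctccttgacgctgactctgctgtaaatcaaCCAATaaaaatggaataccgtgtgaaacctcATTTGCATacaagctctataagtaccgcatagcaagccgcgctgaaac
H3c15: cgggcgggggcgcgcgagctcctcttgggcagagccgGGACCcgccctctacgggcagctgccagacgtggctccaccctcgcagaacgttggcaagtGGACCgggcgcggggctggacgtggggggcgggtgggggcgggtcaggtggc
H4c4: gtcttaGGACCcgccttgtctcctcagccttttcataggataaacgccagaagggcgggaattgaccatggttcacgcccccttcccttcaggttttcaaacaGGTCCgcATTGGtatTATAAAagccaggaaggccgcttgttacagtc
In H1f4 the H1 box began 115 bases before the start, a CCAAT 52 and a TATAAA 27 bases before it. H2bc18 held the octamer 48 bases before its start and a CCAAT 79 bases before it. H4c4 carried the H4 element 47 bases before its start, next to an inverted CCAAT at 40 and a TATAAA at 32 bases, while the 150 bases of H3c15 shown held neither CCAAT nor TATAAA.

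Promoter entries were found for 54 of the 59 genes (none for H2bc4, H2bc21, H3c7, H3c1 and H4c14), covering 250 bases before to 50 bases after the start. CCAAT or its complement stood in 46 of the 54, against 37.9% of 27025 RefSeq mouse promoters of the same length. It was in all 6 H1, 14 H2A, 14 H2B and 9 H3 promoters found, but in 3 of 11 H4 promoters. TATAAA was in 33 of 54, against 14.2% of all promoters. The octamer was in 6 of 14 H2A and 6 of 14 H2B promoters and in none of the others, against 1.75% of all promoters. The H1 box stood in 5 of 6 H1 promoters, 2 of 14 H2A and 2 of 14 H2B promoters, against 7.14% of all. The H4 element was in 10 of 11 H4 promoters and in 22 of all 54, against 45.4% of all promoters, so over the whole set it was about as frequent as in any promoter. A divergent H2A and H2B pair shares bases between its windows, so these counts are not independent. Members with and without a given element had medians of the log2 fold change, described below, of −0.70 and −0.94 for TATAAA, −0.76 and −0.70 for CCAAT, −0.68 and −0.78 for the octamer, −0.57 and −0.78 for the H1 box and −0.84 and −0.69 for the H4 element. Both medians were negative for all 5 elements.

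Histone mRNA was lower in each Wdr82 hairpin library than in the scrambled library with a like intron share, and at the same time differed more between libraries of the same hairpin group. Summed over the 59 genes, histones had 1295 CPM in sh1137 and 3723 CPM in sh830, against 2006 CPM in scrambled 1 and 6547 CPM in scrambled 2 (counts per 1000000 exon counts, scaled by TMM factors). The groups overlapped, since sh830 stood above scrambled 1. These sums correspond to 48400 and 158567 counts in the hairpin libraries against 83988 and 253299 counts in the scrambled ones. As a share of all gene exon counts they were 0.139% in sh1137 (95% Wilson interval 0.138% to 0.140%) and 0.366% in sh830 (0.364% to 0.367%), against 0.210% in scrambled 1 (0.208% to 0.211%) and 0.594% in scrambled 2 (0.592% to 0.596%). The intervals cover counting error only, and fewer cells in S phase and less histone RNA per cell cannot be told apart in bulk RNA.

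**Figure D1:**
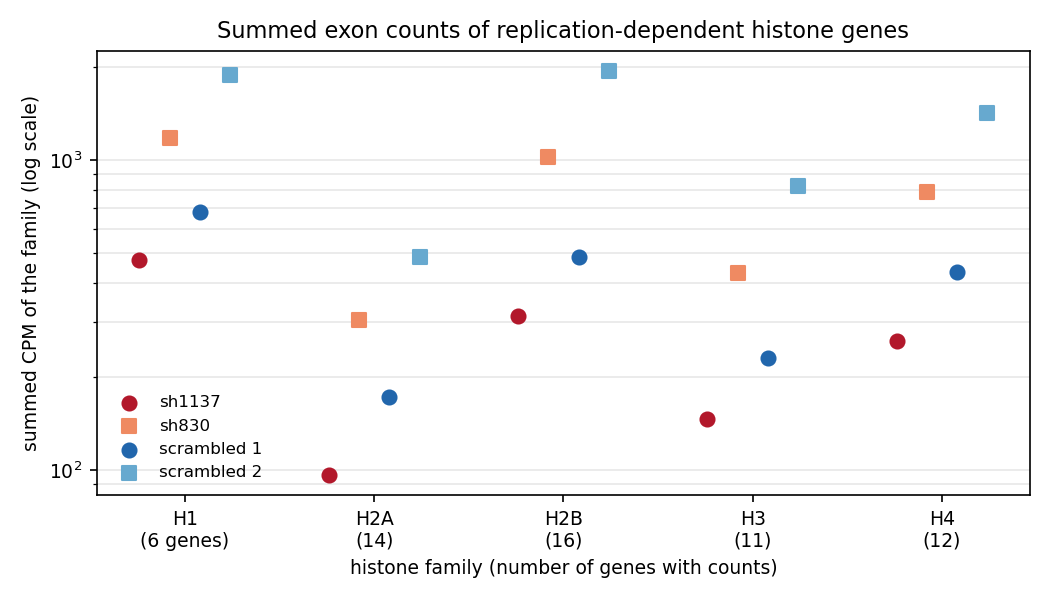
Summed CPM (TMM-scaled, log axis) of the H1, H2A, H2B, H3 and H4 genes in sh1137, sh830, scrambled 1 and scrambled 2, 1 point per library. In every family sh1137 is lowest, then scrambled 1, sh830 and scrambled 2, so both hairpin points lie below the scrambled point of like intron share but the groups overlap.

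The 4 libraries formed a second split that the labels do not give. Intron counts made up 44.2% of exon and intron counts in sh1137 and 15.2% in sh830, against 40.4% in scrambled 1 and 14.6% in scrambled 2, so sh1137 and scrambled 1 were intron-rich and sh830 and scrambled 2 intron-poor. Gene exon counts totalled 34787556 and 43372731 in the hairpin libraries against 40074419 and 42635790 in the scrambled ones. The targeted gene, Wdr82, had 25.2 CPM in sh1137 and 40.4 CPM in sh830, against 98.0 CPM in scrambled 1 and 148 CPM in scrambled 2, lower in both hairpin libraries than in either scrambled one (log2 fold change −1.92 ± 0.088 SE; adjusted p = 0.0042 by edgeR's quasi-likelihood test with a term for the intron split). With the group term alone its adjusted p was 0.43, and by DESeq2 with the group term alone 0.00052. Macrophage markers (8 genes) summed to 8624 and 15028 CPM in the hairpin libraries against 9934 and 12510 CPM in the scrambled ones, and 2 of the 8 fell. Stromal markers (6 genes) summed to 44.3 and 146 CPM against 9.43 and 44.0 CPM, with 2 that rose, and endothelial markers (3 genes) to 65.7 and 40.9 CPM against 40.7 and 36.7 CPM, with 2 that rose. Sums of the T cell, B cell, neutrophil, erythroid and megakaryocyte markers stayed at or below 19.3 CPM in every library, with 1 T cell marker that rose and the B cell marker Pax5 at 0 counts throughout. By the same edgeR fit with the term for the intron split, 7.45% of all genes tested fell and 5.57% rose. With the group term alone edgeR called none of these markers. The part of these cell types in the histone values was not tested.

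With the term for the intron split, 32 of the 56 members that passed the filter on low counts fell and 1 rose at an adjusted p under 0.05, and 23 did not pass. H1f6, H2ac1 and H3c13 had too few counts to be tested. Among all 13817 genes tested, 7.45% fell and 5.57% rose. The median log2 fold change was −0.71 over the members and −0.02 over all genes. The members that fell ranged from −4.47 to −0.54, with adjusted p between 0.0042 and 0.047. With the group term alone no member was called by edgeR (unadjusted p under 0.05 for 0 that were lower and for 1 that was higher), and no gene of the 13817 was called either. DESeq2 called 40 that fell and 1 that rose with the term for the intron split, and 0 that fell and 1 that rose with the group term alone. The share of all genes called by DESeq2 is not given here, so its counts cannot be set against all genes. With the group term alone and 1 library left out, the members' median was −0.14 without sh1137 and −1.80 without sh830. It was −1.26 without scrambled 1 and 0.33 without scrambled 2. The term for the intron split was defined from the data, it left 1 residual degree of freedom, and an exact permutation of 2 against 2 libraries cannot give a p below 0.33. The SE and p-values of that fit leave out the difference between intron-rich and intron-poor libraries. For H2bc18, for example, the SE was 0.084 with the term and 1.03 with the group term alone.

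The order of the libraries was nearly the same gene by gene. In 50 of the 56 members the level descended from scrambled 2 through sh830 and scrambled 1 to sh1137, an order found in 17.6% of all genes tested. In H2ac22, H2bc22 and H2bc1 sh830 stood above scrambled 2, and H2ac18, H2bc21 and H4c18 each had an order of their own. Both hairpin libraries were below both scrambled libraries in 1 member, H4c18, against 15.8% of all genes. Both were above in 1, H2bc21, against 15.3%. Within the 2 pairs of like intron share, 51 members were lower in the hairpin library of both pairs, against 40.5% of all genes.

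**Figure D2:**
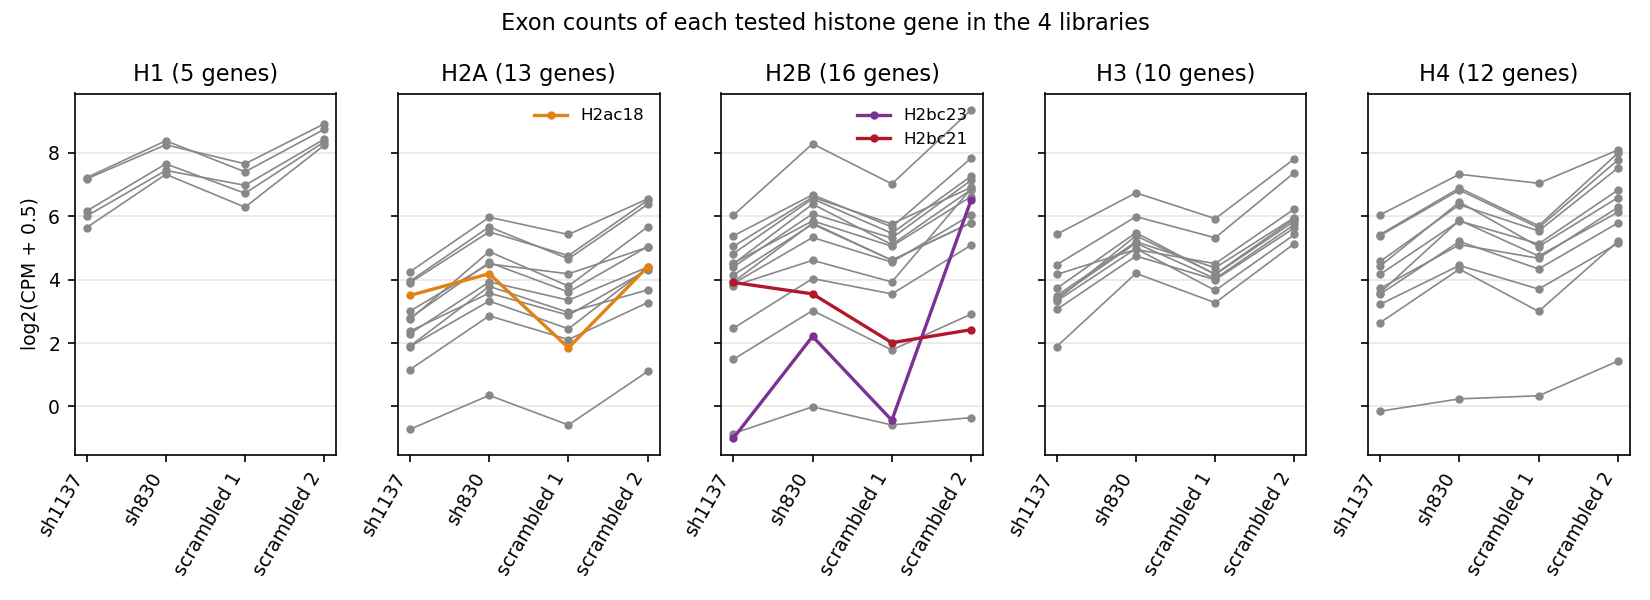
Level on the log2(CPM + 0.5) scale (vertical axis) of each tested histone gene in sh1137, sh830, scrambled 1 and scrambled 2, 1 line per gene and 1 panel per family, with H2ac18, H2bc21 and H2bc23 in colour. Most lines zigzag alike, low in sh1137 and scrambled 1 and high in sh830 and scrambled 2, while H2bc21 is high in both hairpin libraries.

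The differences within and between groups can be set side by side on the log2(CPM + 0.5) scale, which understates changes of low genes. The median over the 56 members was −0.64 for sh1137 minus scrambled 1 (54 below 0) and −0.73 for sh830 minus scrambled 2 (52 below 0). It was −1.63 for scrambled 1 minus scrambled 2 (56 below 0) and −1.61 for sh1137 minus sh830. Both are differences between libraries that carry the same kind of hairpin, and both were larger than the pair differences. Paired the other way, the median was +0.87 for sh830 minus scrambled 1 and −2.31 for sh1137 minus scrambled 2, so the sign of the comparison rests on which libraries are set against each other. Over all genes the medians of these 6 differences lay between −0.07 and 0.02.

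**Figure D3:**
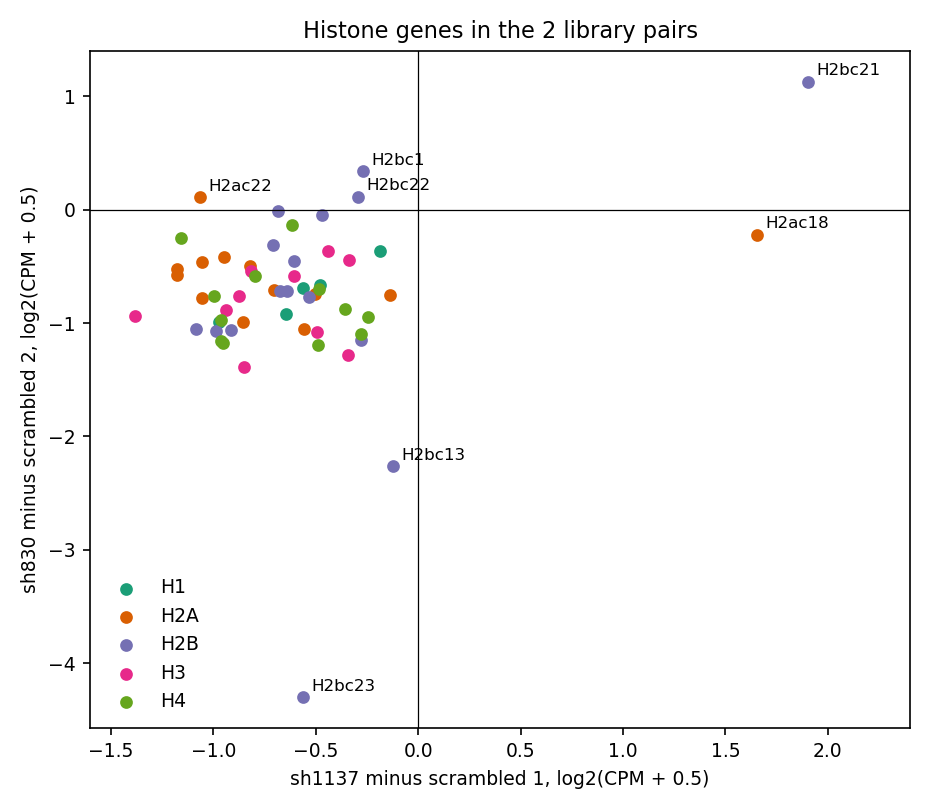
Log2 difference of CPM + 0.5 for sh830 minus scrambled 2 (vertical axis) against sh1137 minus scrambled 1 (horizontal axis), 1 point per tested histone gene. Of the 56 points 51 lie below 0 on both axes, H2bc21 lies in the upper right at 1.90 and 1.13, and H2bc23 lies lowest on the vertical axis at −4.30.

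H1, the linker histones that bind DNA between nucleosomes, had the largest sum of the 5 families in sh1137, sh830 and scrambled 1, and H2B passed it in scrambled 2. The H1 sum was 478 CPM in sh1137 and 1174 CPM in sh830, against 679 CPM in scrambled 1 and 1887 CPM in scrambled 2 (log2 difference of means of the log values −0.60, with an SD of 0.92 in hairpin and 1.04 in scrambled libraries). Of 5 tested H1 genes 4 fell, with a median over the 5 of −0.63. H1f5 had 63.8 CPM in sh1137 and 174 CPM in sh830, against 126 CPM in scrambled 1 and 346 CPM in scrambled 2 (log2 fold change −0.98 ± 0.081, adjusted p = 0.0085 by edgeR). Both hairpin values were at about the same remove below their paired scrambled value, −0.97 and −0.99, yet sh830 exceeded scrambled 1. Without scrambled 2 the H1f5 value was −0.08. H1f4 had 144 and 306 CPM in sh1137 and sh830 against 201 and 484 CPM in scrambled 1 and 2 (−0.57 ± 0.091, adjusted p = 0.024 by edgeR). H1f2 had 149 and 333 CPM against 169 and 429 CPM, and was the 1 tested H1 gene that did not pass (−0.27 ± 0.090, adjusted p = 0.099 by edgeR). The H1 share of all histone counts was 36.9% in sh1137 and 31.5% in sh830, against 33.9% in scrambled 1 and 28.8% in scrambled 2, so it was larger in the libraries with fewer histone counts.

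H2A, the partner of H2B in the nucleosome, summed to 96.5 and 306 CPM in sh1137 and sh830 against 173 and 485 CPM in scrambled 1 and 2 (log2 difference −0.75, SD 1.18 and 1.05). Of its 13 tested genes 7 fell, with a median of −0.79. H2ac15 had 18.5 CPM in sh1137 and 62.2 CPM in sh830, against 42.5 CPM in scrambled 1 and 93.3 CPM in scrambled 2 (−0.88 ± 0.16, adjusted p = 0.032 by edgeR). H2ac4 had 14.5 and 45.1 CPM against 26.6 and 90.3 CPM (−0.94 ± 0.0975, adjusted p = 0.012), and H2ac20 had 15.0 and 50.3 CPM against 24.7 and 82.7 CPM (−0.72 ± 0.093, adjusted p = 0.018). In all 3 genes the hairpin libraries straddled scrambled 1. H2ac18 went another way in its first pair. It had 10.8 CPM in sh1137 and 17.8 CPM in sh830, against 3.10 CPM in scrambled 1 and 20.8 CPM in scrambled 2 (pair differences 1.65 and −0.22, log2 fold change 0.72 ± 0.49, adjusted p = 0.35 by edgeR). Its row joins 2 intervals on opposite strands, 2337 bases in all, so it sums over copies.

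H2B genes summed to 314 and 1023 CPM in sh1137 and sh830 against 487 and 1937 CPM in scrambled 1 and 2 (log2 difference −0.78, SD 1.21 and 1.41). Of 16 tested genes 8 fell and 1 rose, with a median of −0.67. H2bc18 carried the highest level per length of all members, 589 CPM per kilobase of annotated exon averaged over the 4 libraries. It had 65.0 CPM in sh1137 and 312 CPM in sh830, against 130 CPM in scrambled 1 and 655 CPM in scrambled 2 (−1.03 ± 0.084, adjusted p = 0.0085 by edgeR). The pair differences of −0.99 and −1.07 were close, with sh830 above scrambled 1 again. H2bc3 had 27.8 and 93.4 CPM against 43.7 and 153 CPM (−0.68 ± 0.085, adjusted p = 0.017), H2bc7 had 5.03 and 15.9 CPM against 11.2 and 33.5 CPM (−1.11 ± 0.13, adjusted p = 0.015), and H2bc4 had 22.5 and 57.5 CPM against 32.8 and 98.1 CPM (−0.66 ± 0.10, adjusted p = 0.023).

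Scrambled 2 alone set some H2B values. H2bc23 had 0 counts in sh1137 and 176 in sh830, against 10 in scrambled 1 and 3507 in scrambled 2. Its log2 fold change of −4.47 ± 0.21 (adjusted p = 0.0042 by edgeR) was the most negative of the members, and without scrambled 2 the value was +3.10. H2bc13 likewise had 504 and 1019 counts in the hairpin libraries against 617 in scrambled 1 and 4507 in scrambled 2 (−1.26 ± 0.51, adjusted p = 0.15). H2bc13 lies outside the naming rule and was picked after its values were seen. H2bc6 had 41.3 and 102 CPM against 50.2 and 228 CPM and did not pass (−0.73 ± 0.21, adjusted p = 0.078), and 1 of its intervals, 209 bases long, lies inside H1f4 on the same strand, so some of its reads may be H1f4 reads.

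H3 genes, whose product carries many of the modified lysines of the nucleosome, summed to 146 and 432 CPM in sh1137 and sh830 against 230 and 825 CPM in scrambled 1 and 2 (log2 difference −0.79, SD 1.11 and 1.303). Of 10 tested genes 7 fell, with a median of −0.82. H3c15 had 21.7 CPM in sh1137 and 63.1 CPM in sh830, against 39.5 CPM in scrambled 1 and 166 CPM in scrambled 2 (−1.14 ± 0.15, adjusted p = 0.018 by edgeR). H3c10 had 3.21 and 17.9 CPM against 9.17 and 34.8 CPM (−1.21 ± 0.18, adjusted p = 0.022). H3c7 had 42.7 and 106 CPM against 60.3 and 225 CPM (−0.79 ± 0.15, adjusted p = 0.034). H3c2 had 17.5 and 30.5 CPM against 22.2 and 74.9 CPM and did not pass (−0.84 ± 0.23, adjusted p = 0.071). All 4 genes had the common order of libraries.

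H4 genes summed to 262 and 788 CPM in sh1137 and sh830 against 437 and 1413 CPM in scrambled 1 and 2 (log2 difference −0.79, SD 1.12 and 1.20). Of 12 tested genes 6 fell, with a median of −0.70. H4c4 had 65.5 CPM in sh1137 and 160 CPM in sh830, against 131 CPM in scrambled 1 and 272 CPM in scrambled 2 (−0.88 ± 0.0965, adjusted p = 0.014 by edgeR). H4c3 had 23.3 and 82.0 CPM against 46.0 and 184 CPM (−1.07 ± 0.094, adjusted p = 0.0093), and H4c2 had 12.7 and 33.9 CPM against 25.1 and 77.3 CPM (−1.09 ± 0.11, adjusted p = 0.011). Of the 3 H4 genes with the highest mean CPM, 2 did not pass. H4c8 had 42.5 and 118 CPM against 51.6 and 254 CPM (−0.70 ± 0.20, adjusted p = 0.076), and H4c6 had 41.5 and 113 CPM against 49.3 and 219 CPM (−0.61 ± 0.18, adjusted p = 0.078). H4c18, in which both hairpin libraries were below both scrambled ones, had only 15 and 29 counts against 32 and 85 counts and did not pass (−1.35 ± 0.43, adjusted p = 0.095).

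Across families the pattern was alike in kind: each family sum was lower in both hairpin libraries than in the paired scrambled library, and in each the scrambled libraries differed from each other more than either pair. The family sums' scrambled 1 minus scrambled 2 difference ran between −1.99 for H2B and −1.47 for H1. The proportions of H2A (7.45% and 8.22% of histone counts in the hairpin libraries, 8.61% and 7.41% in the scrambled), H3 (11.3% and 11.6%, against 11.5% and 12.6%) and H4 (20.2% and 21.2%, against 21.8% and 21.6%) moved little. H2B took 24.2% and 27.5% in the hairpin libraries and 24.3% and 29.6% in the scrambled ones, more in the intron-poor libraries. The 23 members that did not pass ranged from −1.35 to 0.72, and 2 of them, H2ac18 and H2bc1, had a positive value.

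H2bc21, formerly Hist2h2be, was the exception in direction. It encodes an H2B that is known, unlike most of the set, to be made also as a polyadenylated mRNA in cells that no longer divide. H2bc21 had 545 counts in sh1137 and 478 in sh830, against 148 in scrambled 1 and 188 in scrambled 2, or 14.6 and 11.2 CPM against 3.53 and 4.86 CPM. Both hairpin libraries were above both scrambled ones, and each group's libraries were close to each other (log2 fold change 1.62 ± 0.26, adjusted p = 0.024 by edgeR). DESeq2 with the group term alone also called it (adjusted p = 0.017), while edgeR with the group term alone did not (0.47). When each library was left out in turn, the fold change stayed between 1.42 and 1.87 with no call. Its level per length was 5.57 and 4.29 CPM per kilobase in sh1137 and sh830 against 1.35 and 1.86 in scrambled 1 and 2, low beside H2bc18. The annotated interval of H2bc21 is 2618 bases long and that of H2bc18 493, so these levels per length are not like for like. Where in the interval the reads of H2bc21 lie cannot be told from these counts.

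H2bc21 sits in the smaller cluster on chromosome 3. The 49 tested members on chromosome 13 (mm9, 21807632 to 24026025) gave 29 that fell, none that rose and a median of −0.71. The 7 tested on chromosome 3 (96023839 to 96074115) gave 3 that fell, 1 that rose and a median of −0.72. H2ac20 and H2bc21 face away from each other with 277 bases between their annotated starts. H2ac20 fell to 15.0 and 50.3 CPM in the hairpin libraries, against 24.7 and 82.7 CPM in the scrambled ones, whereas H2bc21 rose, so the neighbours differed by 2.34 in log2 fold change. There were 9 divergent H2A and H2B pairs, with 180 to 335 bases between starts. H2ac1 was not tested, so its pair with H2bc1 has no difference. Over the other pairs the absolute difference within a pair had a median of 0.36, and 2.34 was the largest. In 1 pair, H2ac6 and H2bc4, both fell. The pairs were defined after the data had been seen, and were given no test.

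**Figure D4:**
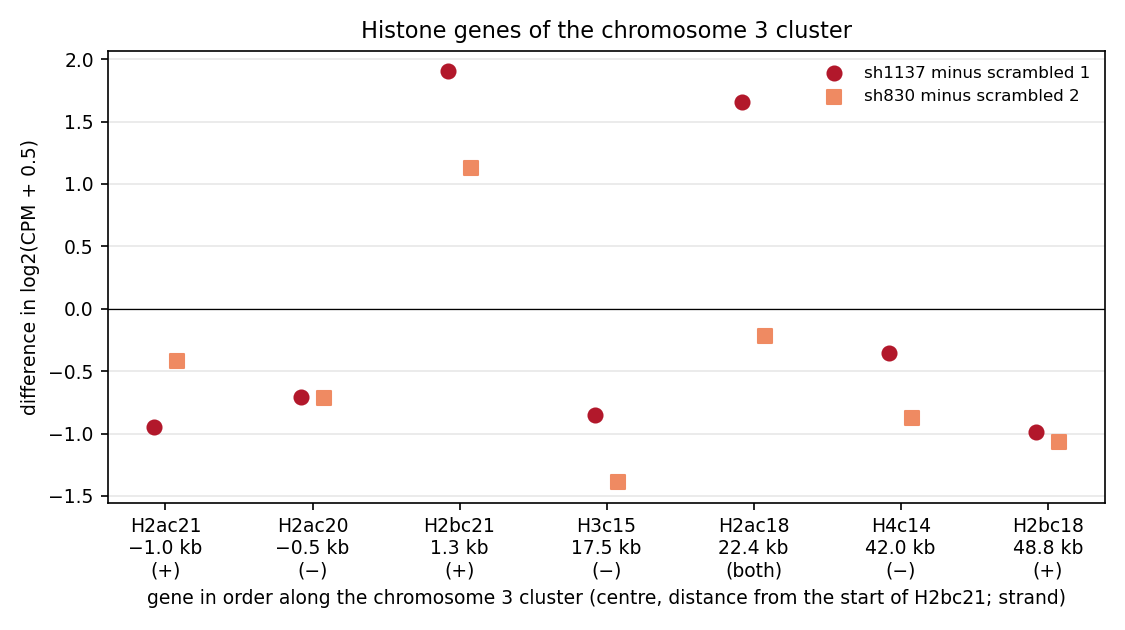
Log2 difference of each chromosome 3 member within the pair sh1137 and scrambled 1 and within the pair sh830 and scrambled 2 (vertical axis, log2(CPM + 0.5) scale), in order along the chromosome and labelled with strand and with distance in kilobases from the annotated start of H2bc21. H2bc21 lies above 0 in both pairs, H2ac18 in the first only, and the other members with counts lie below 0 in both.

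The authors also deposited counts for 1107 regions outside genes, chosen by them from a comparison of hairpin with vector cells, so their direction is not independent of knockdown. Of 1068 tested regions 51% rose and none fell by edgeR with the term for the intron split. Of all regions 3 lie within 5 kb of a histone gene, all on chromosome 3. The region labelled for the end of Hist2h4, near H4c14 (mm9, 96059500 to 96065499), had 205 and 64 counts in sh1137 and sh830 against 17 and 13 in scrambled 1 and 2, all hairpin values above all scrambled ones, and rose (log2 fold change 3.02 ± 0.51, adjusted p = 0.027 by edgeR with the split, 0.49 with the group term alone, 0.015 by DESeq2 with the group term alone). The region that begins at the end of H2bc21, sharing 162 bases with it, had 114 and 71 counts against 39 and 45 and did not pass (1.12 ± 0.43, adjusted p = 0.14 by edgeR). The region labelled for the start of Hist2h3b had 655 and 842 counts against 560 and 1284, overlapping between groups (−0.19 ± 0.28, adjusted p = 0.67). It covers the whole interval of H3c13, listed at 0 counts in all 4 libraries, and 241 of the 348 bases of H4c14.

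Intron intervals existed for 4 members, all of H2B. H2bc6 had 149 and 102 intron counts in sh1137 and sh830 against 198 and 55 in scrambled 1 and 2, more in the intron-rich libraries. H2bc4 had 61 and 99 against 70 and 75, H2bc22 had 11 and 15 against 1 and 12, and H2bc23 had 1 and 5 against 2 and 0. The exon counts of H2bc22 were 86 and 326 against 123 and 272 (−0.10 ± 0.25, adjusted p = 0.81 by edgeR), with sh830 the highest library. The intron counts were not tested.

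Histone genes are short and mostly intronless, so their values were set beside those of other genes by length and introns, in classes chosen after the data had been seen and given no test. The median scrambled 1 minus scrambled 2 difference was −1.63 over the 56 histone members, against −0.01 over 268 other protein-coding genes without intron intervals and −0.24 over the 29 of these with under 1000 bases of exon. Among other protein-coding genes with introns it was −0.77 for 667 with under 1000 bases of exon, −0.30 for 4850 with 1000 to 3000 bases and 0.08 for 7315 with more. The median log2 fold change between hairpin and scrambled libraries was −0.71 over the histones, 0.07 over the 268 intronless genes, 0.04 over the 29 short ones of these, −0.21 over the 667 short intron-bearing genes, −0.08 over the 4850 and 0.02 over the 7315 longer ones. Within the histones, the 12 members with 1000 bases or more had a median of −0.70 and the 44 shorter ones −0.71. The part of length, introns and any other difference between the 2 kinds of library in the histone values was not tested.

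**Figure D5:**
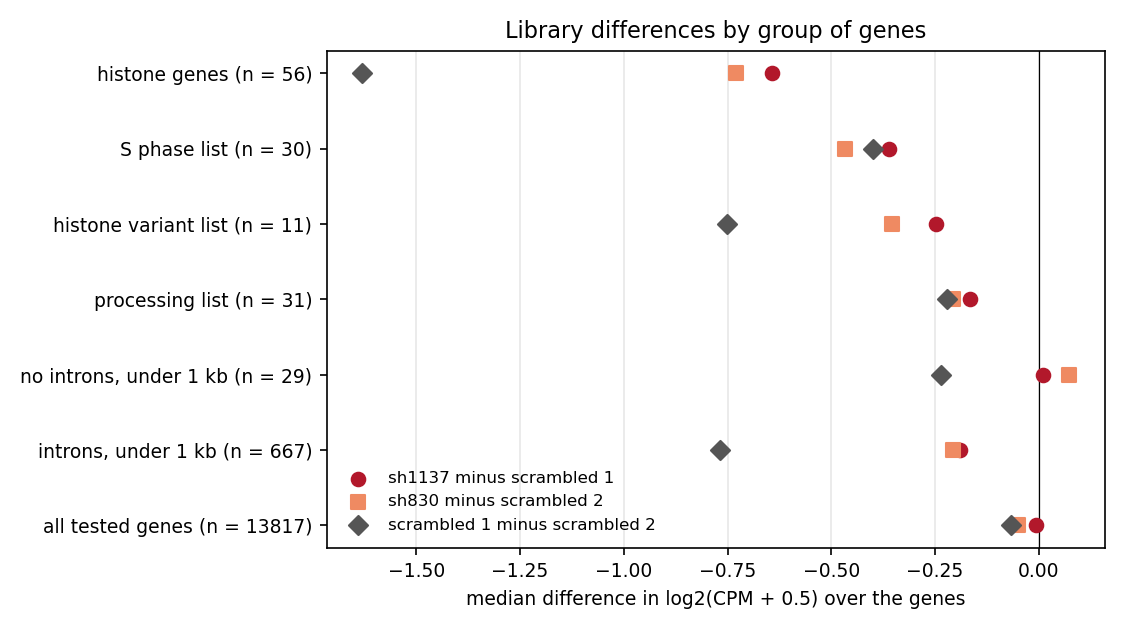
Median difference on the log2(CPM + 0.5) scale (horizontal axis) by group of genes, with intron-bearing and intronless protein-coding genes under 1 kb of exon among them, for sh1137 minus scrambled 1, sh830 minus scrambled 2 and scrambled 1 minus scrambled 2. Histone members stand at −0.64, −0.73 and −1.63, below every other group shown in all 3 differences.

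The other histone genes, most of them for variants made as polyadenylated mRNA, include H2ax, which is also made as a stem-loop mRNA in S phase, and Cenpa, whose expression follows the cell cycle. Of 11 tested 5 fell (H1f0, H2ax, H2az1, H3f3b and Cenpa) and none rose, with a median of −0.31, where 7.45% of all genes fell. Cenpa, the H3 variant of centromeres, had 34.7 and 46.6 CPM in sh1137 and sh830 against 57.8 and 92.8 CPM in scrambled 1 and 2, lower in both hairpin libraries than in either scrambled one (−0.87 ± 0.11, adjusted p = 0.016 by edgeR). H2az1, an H2A variant found at promoters, had 191 and 412 CPM against 285 and 664 CPM, where the groups overlapped (−0.63 ± 0.086, adjusted p = 0.019).

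Of 31 tested factors that make, process or degrade histone mRNA, 4 fell (Cpsf3, Cstf2, Eri1 and Lsm4) and 1 rose (Tut7), with a median of −0.19, where 7.45% of all genes fell and 5.57% rose. These few calls say nothing particular about the list. Slbp, which binds the stem-loop, had 66.4 and 85.5 CPM in sh1137 and sh830 against 74.7 and 101 CPM in scrambled 1 and 2 and did not pass (−0.21 ± 0.084, adjusted p = 0.15 by edgeR). Npat, the coactivator of histone gene transcription, had 58.1 and 45.5 CPM against 54.2 and 50.0 CPM (−0.02 ± 0.10, adjusted p = 0.91). Cpsf3, the endonuclease that cuts pre-mRNA 3′ ends, histone ones included, had 45.0 and 56.7 CPM against 68.0 and 81.7 CPM (−0.56 ± 0.087, adjusted p = 0.023). Lsm4, a subunit of the LSM ring of mRNA decay and splicing, had 15.4 and 26.1 CPM against 24.5 and 41.6 CPM (−0.67 ± 0.10, adjusted p = 0.023). Tut7, a uridylyltransferase acting on RNA 3′ ends, had 185 and 159 CPM against 136 and 126 CPM (0.39 ± 0.084, adjusted p = 0.041). For Cpsf3 and Tut7 the groups did not overlap.

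S phase genes, the replication and nucleotide synthesis genes active when these histones are made, numbered 30 tested, of which 16 fell and none rose, with a median of −0.44, where 7.45% of all genes fell. Rrm2, a ribonucleotide reductase subunit, had 68.5 and 97.7 CPM in sh1137 and sh830 against 125 and 168 CPM in scrambled 1 and 2 (−0.82 ± 0.083, adjusted p = 0.012 by edgeR). Uhrf1, which reads hemimethylated DNA behind the fork, had 159 and 189 CPM against 283 and 281 CPM (−0.70 ± 0.099, adjusted p = 0.020). In both genes every hairpin value lay below every scrambled one, unlike nearly all histone genes. The median scrambled 1 minus scrambled 2 difference was −0.40 over the S phase genes and −0.75 over the variants, against −1.63 over the histones. With the group term alone no gene of these 3 lists was called by edgeR, and unadjusted p was under 0.05 for 1 variant, 0 processing and 2 S phase genes that were lower and for 0 that were higher. By DESeq2 the calls with the split were 6 variant, 5 processing and 20 S phase genes that fell and 1 processing gene that rose, and there were 0 with the group term alone. These DESeq2 counts, too, have no share of all genes beside them. The part of cell cycle state in the histone values was not tested.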

How the data were processed

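For 4 libraries the authors deposited read counts of each gene, one table over exons and another over introns, not normalized, with mm9 intervals. Whole values and unequal totals gave the unit. The submitters' processing notes name SICER, the mm9 build, Cuffdiff and Cufflinks (both 2.1.1) and TopHat 1.3.1; the counting tool and its strand setting are not given in the sources used here. Libraries were strand-marked TruSeq libraries after Ribo-Zero depletion, per the labels' protocols.

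Members and lists were chosen with earlier results of these data known. Symbols came from RefSeq (GRCm38.p6), which was used for names and promoters only. Counts were tested with edgeR 4.0.16 (quasi-likelihood F-test, TMM factors, filterByExpr; R 4.3.3, limma 3.58.1), with group and a term for the intron split, Benjamini-Hochberg adjusted over all tested genes and regions at 0.05. SE is the absolute log2 fold change over the square root of F. On counts simulated with the fit's own means, spread and intron split, median estimates were close to the fold changes set. Unchanged genes made up more of the calls than the threshold allows. The simulation had the split built in, so it cannot show whether that term is right for these libraries. The term was taken from intron shares, not labels. Alternatives were the group term alone, the crossed split, DESeq2 1.42.0, RLE factors, total counts, no filter, each library left out and, for sums, each pair and the top member left out. Named genes were, per family, the 3 with the highest mean CPM, the 5 largest rises and falls with a mean of at least 1 CPM, members with intron counts, H2ac18, H2bc21, H2bc23 and H4c3, and from other lists the 2 smallest p in each direction. H2bc13, H4c18, Slbp and Npat are described with values outside this rule. Depth was 34787556 to 43372731 gene exon counts per library.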

Additional observations from a re-analysis of the deposited data

How the results depend on the processing

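The 32 histone genes that fell were 29 to 40 with RLE factors, total counts, no filter or DESeq2 with the intron split, but 0 with the group term alone, 0 with the crossed split and 0 by DESeq2 with the group term alone. For RLE factors, total counts, no filter and DESeq2 the share of all genes called is not given here. With each library left out in turn there were 0 to 15: 1 without sh1137, 15 without sh830, 3 without scrambled 1 and 0 without scrambled 2 (edgeR; unadjusted p under 0.05 for 0 that were lower and 2 that were higher). The 1 that rose was 0 with the group term alone, 0 with the crossed split and 0 in every fit without a library. The same 3 settings without the split gave 0 fallen variants (5 with it), 0 fallen and 0 risen processing genes (4 and 1) and 0 fallen S phase genes (16, and 9 with total counts), and leaving out any library gave 0 for each. For regions near histone genes the 1 became 0 with the group term alone and the crossed split, and 0 to 1 with a library left out. The histone median of −0.71 was −0.64 with total counts and ran from −1.80 to 0.33 with a library left out, 0.33 being without scrambled 2. The cause was not tested.

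For the family sums H1, H2A, H2B, H3 and H4, sh1137 over scrambled 2 gave −1.98, −2.33, −2.63, −2.50 and −2.43, and sh830 over scrambled 1 turned the sign, to 0.79, 0.83, 1.07, 0.91 and 0.85. With a library left out, H1 ran from −1.33 to 0.14, H2A from −1.59 to 0.080, H2B from −1.77 to 0.22, H3 from −1.72 to 0.13 and H4 from −1.64 to 0.055. Without sh1137 the sums of H1, H2A, H2B and H4 were 0.053, 0.080, 0.075 and 0.0040, and without scrambled 2 those of H1, H2B, H3 and H4 were 0.14, 0.22, 0.13 and 0.055.

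With a library left out, the log2 fold change was lowest without sh830 and turned positive without scrambled 2 for H1f4 (−1.25 to 0.16), H2ac4 (−2.01 to 0.16), H2ac20 (−1.84 to 0.40), H2bc18 (−2.59 to 0.54), H2bc3 (−1.82 to 0.47), H2bc4 (−1.54 to 0.29), H3c7 (−1.74 to 0.31), H3c10 (−2.77 to 0.20), H3c15 (−2.24 to 0.10) and H4c3 (−2.30 to 0.20). H2bc23 ran from −13.80 to 3.10, where the low end is against 0 counts in sh1137 and is no bound. Values near or above 0 without scrambled 2 were also found for H1f5 (−1.89 to −0.08), H2ac15 (−1.87 to −0.075), H2bc7 (−2.15 to −0.10), H4c2 (−2.01 to −0.10), H4c4 (−1.62 to −0.22) and, among those that did not pass, H1f2 (−1.01 to 0.51), H2bc6 (−1.75 to 0.51), H2bc22 (−1.11 to 0.76), H3c2 (−1.62 to 0.11), H4c6 (−1.69 to 0.65) and H4c8 (−1.85 to 0.64), while H2ac18 ran from −0.52 to 2.20. The variants' median ran from −1.07 to 0.13, and was 0.086 without sh1137. No paired analysis was possible from the labels, because they give the hairpin libraries no replicate number that would pair them with scrambled libraries. The pairs used here rest on the intron share alone. The term for the intron split sets sh1137 with scrambled 1 and sh830 with scrambled 2, so the main fit compared libraries within these pairs. In fits without a library, the lone sample is assumed to vary like the other group. Depth limits H4c18, H2bc1, H2bc22 and H2ac23, which had few counts.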
